A study of Mus musculus with 180 samples.

Results

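The enzymes that write and erase 5-methylcytosine were followed through single haematopoietic cells: Dnmt1, Uhrf1, Dnmt3a, Dnmt3b, Tet1, Tet2, Tet3 and Tdg. They were chosen by name and are 8 of the 14825 genes in the deposited table. Their levels are in TPM, a level per transcript length that is scaled to the same sum in every cell and can therefore be set side by side between genes. A gene is called detected in a cell where its TPM reaches 1. All 8 passed the filter on low values, which kept the 10856 genes that were detected in 10% or more of the cells in some population.

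The study asked what Hoxb5, a transcription factor of haematopoietic stem cells (HSC), does when it is switched on in multipotent progenitors (MPP), which lie downstream of HSC. The CD11b+CD48+SK population (47 cells) was sorted as donor-derived GFP+CD45.2+Lin-Sca1+c-kit+CD48+CD11b+ cells from primary recipients at Week 8 after transplantation. These recipients were lethally irradiated CD45.1+ mice given MPP from Mx1cre/Rosa LSL-Hoxb5-EGFP/+ donors, and pIpC was injected to drive Mx1-cre, an interferon-responsive Cre that is not restricted to MPP, and so release Hoxb5-EGFP. WT-MPP (41 cells, CD48-Sca1+c-kit+CD150-CD135+) and BM HSC (36 cells) came from bone marrow of 8-week-old Rosa LSL-Hoxb5-EGFP/+ mice, which carry the silent transgene without Cre. FL HSC (56 cells) came from embryos of that genotype at Day14.5, sorted for CD150, CD11b, Sca1 and c-kit without lineage markers, and all mice were on a C57BL/6 background. No transplanted MPP without Hoxb5 was among the 4 populations, so the transgene, transplantation, irradiation, pIpC and the passage of time cannot be told apart in any difference that involves CD11b+CD48+SK cells. No animal or embryo is named for any cell. Each population was therefore taken as 1 sample without a test, and the spreads and intervals below cover the cells drawn and not the animals.

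The sorted identities were visible in part in the transcripts. Cd48 was detected in 100% of CD11b+CD48+SK cells and in at most 17.9% of the cells of any other population. Itgam, which encodes CD11b, was detected in only 36.2% of CD11b+CD48+SK cells and 16.1% of FL HSC, both sorted for CD11b. Flt3 (CD135), for which WT-MPP were sorted, was detected in 75.6% of WT-MPP but also in 87.2% of CD11b+CD48+SK cells. It was detected in 53.6% of FL HSC and 25% of BM HSC. Slamf1 (CD150) was detected in 63.9% of BM HSC and 55.4% of FL HSC. Hoxb5 was detected in 91.5% of CD11b+CD48+SK cells, 57.1% of FL HSC, 22.2% of BM HSC and 17.1% of WT-MPP. The number of genes detected per cell had a median of 5206.5 in FL HSC, 4514 in CD11b+CD48+SK cells, 4441.5 in BM HSC and 3844 in WT-MPP, and read depth is unknown because TPM keeps no counts. The 7 listed erythroid markers were all detected in FL HSC, with a median summed TPM of 2406 (range 104 to 11606) against medians of 0 to 39.5 elsewhere, where Hbb-bh1 was at 0 in every cell. One label calls the FL HSC bone marrow, although title, stage and sort name fetal liver.

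In mammals, methyl groups sit mostly on the cytosine of CpG sites. After each round of replication UHRF1 binds the half-methylated daughter strands and brings in DNMT1, which copies the mark, whereas DNMT3A and DNMT3B place it on unmethylated DNA. TET1, TET2 and TET3 oxidise 5-methylcytosine, and TDG removes the most oxidised forms so that base excision repair can restore a plain cytosine. Loss of DNMT3A or TET2 function in adult HSC is a known route to clonal haematopoiesis.

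The promoters of the members that this account turns on are printed from RefSeq (GRCm38.p6), from 250 bases before to 50 bases after an annotated start, on the gene's strand. All 8 members had an entry, 13 starts in all. Capitals mark E2F-type letters, TTTCCCGC, TTTCGCGC, TTTGCCGC or TTTGGCGC on either strand, and E2F factors are best known for driving genes of DNA replication. The first pair belongs to the maintenance genes Dnmt1 (start 3 of its entries, chr9:20952574-20952873, minus strand) and Uhrf1 (start 2, chr17:56304063-56304362, plus strand):
Dnmt1: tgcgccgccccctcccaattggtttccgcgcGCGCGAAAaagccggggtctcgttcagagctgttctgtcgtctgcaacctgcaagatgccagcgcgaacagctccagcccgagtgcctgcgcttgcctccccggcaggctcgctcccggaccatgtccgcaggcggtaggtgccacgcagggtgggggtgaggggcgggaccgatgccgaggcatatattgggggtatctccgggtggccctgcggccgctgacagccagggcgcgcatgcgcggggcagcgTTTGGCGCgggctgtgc
Uhrf1: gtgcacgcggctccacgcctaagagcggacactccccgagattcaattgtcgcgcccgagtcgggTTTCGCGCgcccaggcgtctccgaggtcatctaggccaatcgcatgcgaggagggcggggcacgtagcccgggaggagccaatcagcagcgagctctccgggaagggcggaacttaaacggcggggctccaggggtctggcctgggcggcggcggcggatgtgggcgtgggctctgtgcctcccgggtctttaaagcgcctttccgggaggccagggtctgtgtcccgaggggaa
The second pair belongs to the de novo genes Dnmt3a (start 1, chr12:3806730-3807029, plus strand) and Dnmt3b (start 1, chr2:153649199-153649498, plus strand), in which none of these letters occurs:
Dnmt3a: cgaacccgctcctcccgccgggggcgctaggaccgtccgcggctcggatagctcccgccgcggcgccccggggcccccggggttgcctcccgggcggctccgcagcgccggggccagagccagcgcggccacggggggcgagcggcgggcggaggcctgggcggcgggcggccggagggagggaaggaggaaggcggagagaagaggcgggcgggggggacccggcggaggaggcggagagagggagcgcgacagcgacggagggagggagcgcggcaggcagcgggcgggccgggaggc
Dnmt3b: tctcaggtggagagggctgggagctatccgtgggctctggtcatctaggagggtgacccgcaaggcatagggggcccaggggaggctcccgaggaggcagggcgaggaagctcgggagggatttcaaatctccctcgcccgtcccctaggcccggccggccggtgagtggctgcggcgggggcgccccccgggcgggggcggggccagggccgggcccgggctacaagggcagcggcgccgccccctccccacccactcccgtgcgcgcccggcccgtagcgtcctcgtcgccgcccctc
The Dnmt1 window held 2 matches, with first bases at -219 and 34 from the start, and the Uhrf1 window held 1 at -185. All of these lie downstream of another annotated start of the same gene. The upstream windows are chr9:20952930-20953229 for start 2 of Dnmt1 and chr17:56303087-56303386 for start 1 of Uhrf1. None of the other 11 windows of the members held a match. Among all 32851 promoters of this length 2.26% held one, and among the 3837 promoters with at least 30 CpG sites 5.06% did. The printed windows are rich in CpG, the site where methyl groups mostly sit. Dnmt1 and Uhrf1 had 33 CpG each, Dnmt3a 46 and Dnmt3b 30, against a median of 7 over all promoters. The Tet2 window, which is not printed, had 57. The Dnmt1 and Uhrf1 starts are shown because they hold the letters, a choice made after the matches were seen, and the other starts had 2 and 12 CpG for Dnmt1 and 12 for Uhrf1. Tet1 had 17 CpG, and a further start of Dnmt3a had 18. The GC box GGGCGG occurred in all 4 printed windows, 6 times for Dnmt3a, 4 for Dnmt3b, 3 for Uhrf1 and 2 for Dnmt1. Of promoters with at least 30 CpG, 87.6% held at least 1. These letters are a description of the sequence, and neither binding nor methylation was measured.

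The 8 members fell into 3 patterns across the populations. The maintenance genes Dnmt1 and Uhrf1 were detected most often in FL HSC and the CD11b+CD48+SK population. The de novo genes Dnmt3a and Dnmt3b, and Tdg, were detected most often in FL HSC. The Tet genes had low mean TPM, and the share of cells with each of them overlapped between populations within its interval. How many of all kept genes had intervals apart between populations was not computed. Separate intervals are therefore not read as particular to the members. The median number of genes detected per cell itself differed, from 3844 in WT-MPP to 5206.5 in FL HSC.

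**Figure D1:**
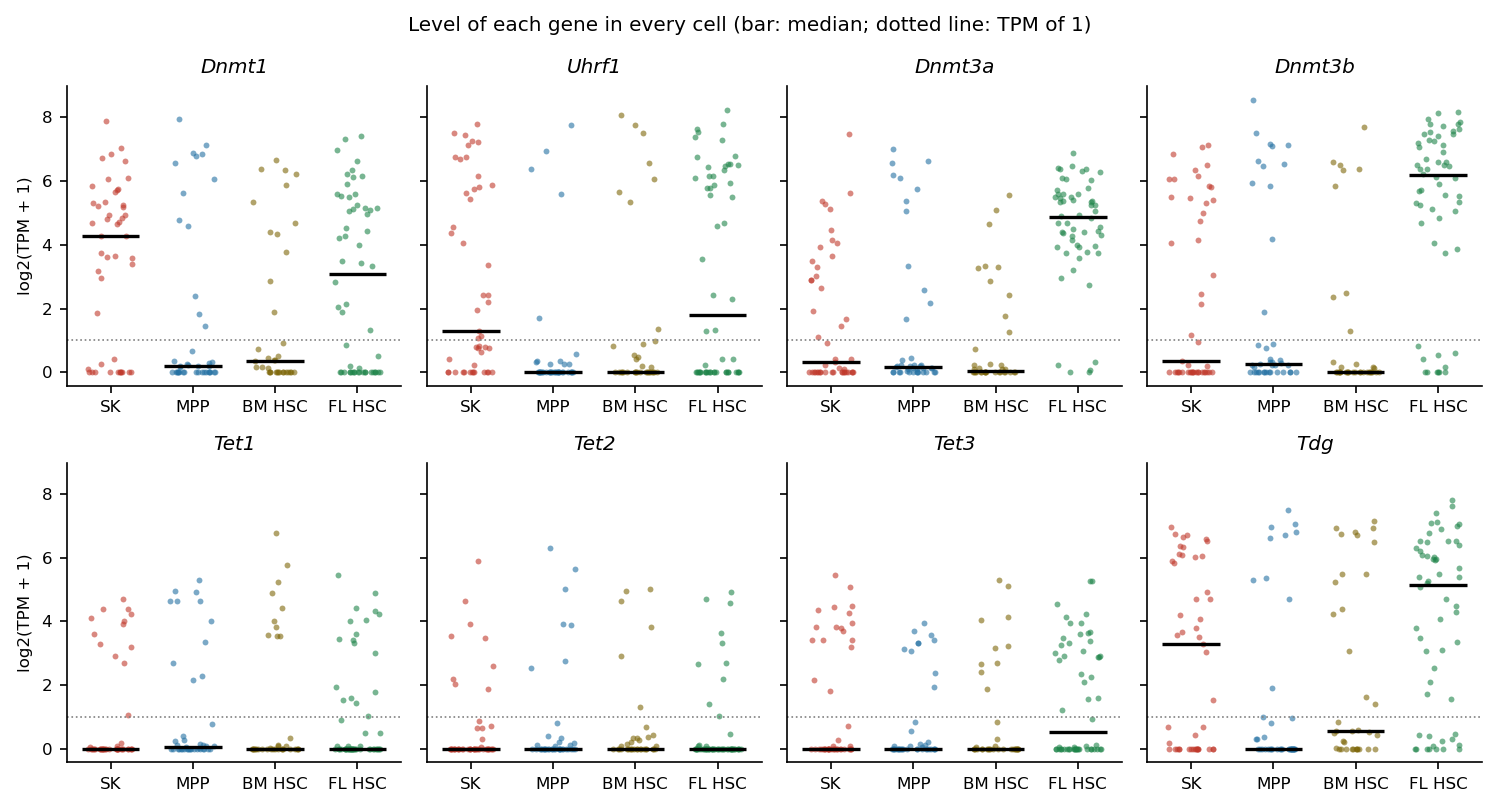
Each point is 1 cell and the vertical axis is log2(TPM+1); SK stands for CD11b+CD48+SK (47 cells) and MPP for WT-MPP (41 cells), beside 36 BM HSC and 56 FL HSC. Black bars are medians and the dotted line is a TPM of 1. The median bars lie above the dotted line in CD11b+CD48+SK cells only for Dnmt1, Uhrf1 and Tdg, and in FL HSC for these and for Dnmt3a and Dnmt3b.

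Dnmt1 (chr9:20907209-20959888, minus strand, GRCm38), the maintenance methyltransferase, ranged from 0 to 237 TPM in CD11b+CD48+SK cells with a median of 18.5. In WT-MPP it ranged from 0 to 247 with a median of 0.146, in BM HSC from 0 to 100.2 with a median of 0.287, and in FL HSC from 0 to 168 with a median of 7.65. The ranges overlapped almost wholly, and the populations differed in how many cells had the transcript. It was detected in 70.2% of CD11b+CD48+SK cells (95% exact Clopper-Pearson interval 55.1 to 82.7%), 58.9% of FL HSC (45 to 71.9%), 31.7% of WT-MPP (18.1 to 48.1%) and 33.3% of BM HSC (18.6 to 51%). The interval of CD11b+CD48+SK cells lay above those of both adult marrow populations and overlapped that of FL HSC. Within the cells that had it, the mean log2(TPM+1) of Dnmt1 was 5.30 in WT-MPP, 4.99 in CD11b+CD48+SK cells, 4.90 in BM HSC and 4.82 in FL HSC. Their median TPM was 66.4 in the 13 WT-MPP against 29.8 in the 33 CD11b+CD48+SK cells, 32.5 in BM HSC and 33.9 in FL HSC.

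Uhrf1 (chr17:56303321-56323486, plus strand), which guides DNMT1 to newly copied DNA, was likewise detected more often in FL HSC and the CD11b+CD48+SK population than in adult marrow, although its median was highest in FL HSC and not, like that of Dnmt1, in the CD11b+CD48+SK population. Its TPM ran from 0 to 219 in CD11b+CD48+SK cells (median 1.46), from 0 to 218 in WT-MPP (median 0), from 0 to 270 in BM HSC (median 0) and from 0 to 301 in FL HSC (median 2.69). Detection reached 55.3% of CD11b+CD48+SK cells (40.1 to 69.8%) and 53.6% of FL HSC (39.7 to 67.0%). It was 22.2% in BM HSC (10.1 to 39.2%) and 12.2% in WT-MPP (4.08 to 26.2%). The intervals of the first pair of populations did not overlap those of the second pair. The few adult cells with Uhrf1 had as much of it as the others, with a mean log2(TPM+1) of 6.04 in the 8 BM HSC and 5.68 in the 5 WT-MPP against 4.93 in the 26 CD11b+CD48+SK cells.

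Dnmt3a (chr12:3806007-3914443, plus strand), a de novo methyltransferase, was a nearly constant feature of FL HSC and of no other population. Its TPM in FL HSC ran from 0 to 117 with a median of 28.6. The medians were 0.256 in CD11b+CD48+SK cells (highest 178), 0.116 in WT-MPP (highest 127) and 0.0344 in BM HSC (highest 46.6). It was detected in 91.1% of FL HSC (80.4 to 97.0%), 42.6% of CD11b+CD48+SK cells (28.3 to 57.8%), and only 29.3% of WT-MPP (16.1 to 45.5%) and 27.8% of BM HSC (14.2 to 45.2%). The interval of FL HSC lay above the other 3, which overlapped one another. The authors' counting is not stated to use strand, and 133 exonic bases of Dnmt3a lie opposite the antisense gene Dnmt3aos, whose reads cannot be told apart from its own.

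Dnmt3b (chr2:153649450-153687730, plus strand), the other de novo methyltransferase and the form best known from the early embryo, stood apart in FL HSC in the same way. Its TPM there ran from 0 to 290 with a median of 71.6, the highest median of any member in any population. Medians were 0.269 in CD11b+CD48+SK cells (highest 141), 0.196 in WT-MPP (highest 376) and 0 in BM HSC (highest 205). It was detected in 80.4% of FL HSC (67.6 to 89.8%) against 46.8% of CD11b+CD48+SK cells (32.1 to 61.9%), and only 29.3% of WT-MPP (16.1 to 45.5%) and 25% of BM HSC (12.1 to 42.2%). Again only the FL HSC interval was separate. WT-MPP and CD11b+CD48+SK cells changed places with the average used: on mean TPM Dnmt3b was 34.1 in WT-MPP and 24.5 in CD11b+CD48+SK cells, and Dnmt3a was 14.9 and 10.1, because the fewer WT-MPP that had either gene had more of it.

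**Figure D2:**
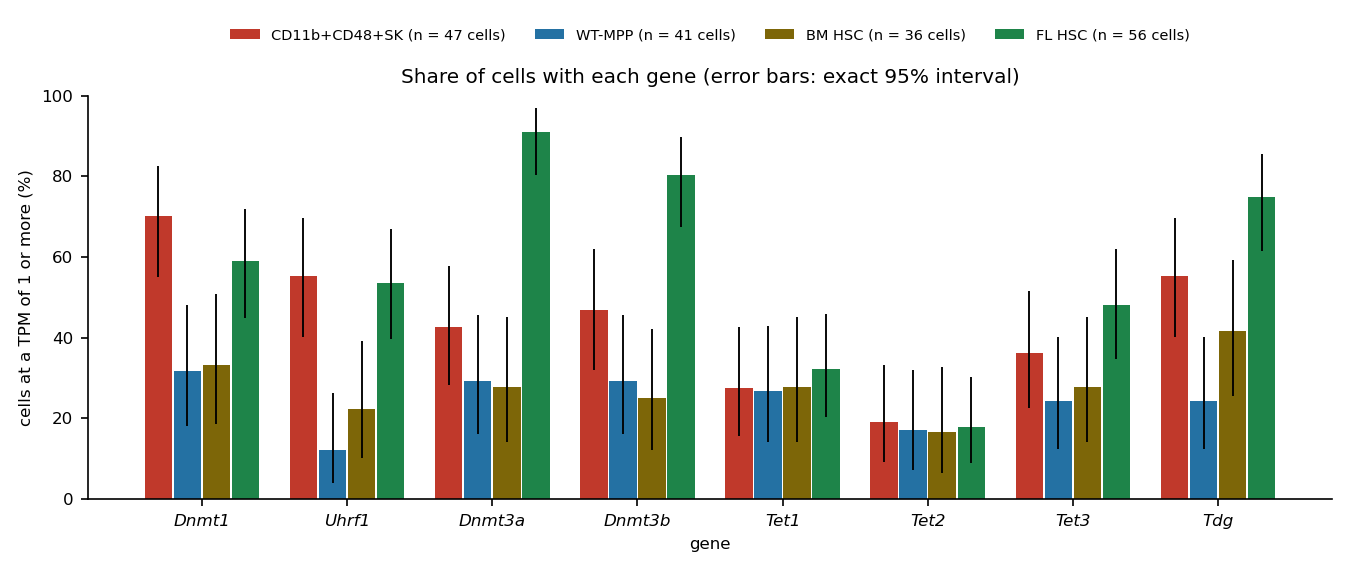
Bars give the share of cells (%) with each gene at a TPM of 1 or more in the 4 populations, and error bars the exact 95% interval over cells. Dnmt1 and Uhrf1 are highest in CD11b+CD48+SK cells (70.2% and 55.3%), Dnmt3a and Dnmt3b in FL HSC (91.1% and 80.4%), and the bars of Tet1 and Tet2 are level.

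The 3 Tet genes had the lowest mean TPM of the members in each population, except that Dnmt3a (4.07) was below Tet1 (8.55) in BM HSC. Tet1 (chr10:62804570-62908996, minus strand) was detected in 32.1% of FL HSC, 27.8% of BM HSC, 27.7% of CD11b+CD48+SK cells and 26.8% of WT-MPP. Tet2 (chr3:133463679-133545139, minus strand) was detected in 17.9%, 16.7%, 19.1% and 17.1% of the same populations in turn. Their intervals overlapped in every pair of populations, and the widest was 14.2 to 45.2% for Tet1 in BM HSC, so a moderate difference could not have been seen with these numbers of cells. Tet3 (chr6:83362373-83459084, minus strand), the form known from the oocyte and differentiated cells, was detected in 48.2% of FL HSC (34.7 to 62.0%), 36.2% of CD11b+CD48+SK cells (22.7 to 51.5%), 27.8% of BM HSC and 24.4% of WT-MPP (12.4 to 40.3%), again with overlapping intervals. The median TPM over cells was 0 for each Tet gene in each population except Tet1 in WT-MPP (0.0462) and Tet3 in FL HSC (0.496). The highest single cells were a BM HSC with 108 TPM of Tet1, a WT-MPP with 77.9 TPM of Tet2 and a CD11b+CD48+SK cell with 42.7 TPM of Tet3. The antisense gene Gm42567 shares 43 exonic bases with Tet2.

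Tdg (chr10:82629828-82650799, plus strand), the glycosylase that removes the oxidised base in active demethylation, was ordered across the populations much as the de novo genes were. Its TPM ran from 0 to 224 in FL HSC (median 34.4), from 0 to 123 in CD11b+CD48+SK cells (median 8.80), from 0 to 143 in BM HSC (median 0.472) and from 0 to 178 in WT-MPP (median 0). It was detected in 75% of FL HSC (61.6 to 85.6%), 55.3% of CD11b+CD48+SK cells (40.1 to 69.8%), 41.7% of BM HSC (25.5 to 59.2%) and, lowest, 24.4% of WT-MPP (12.4 to 40.3%). The interval of FL HSC lay above those of both adult populations, while neighbours in this order overlapped. Tdg is an uncertain measurement, since 367 of its exonic bases overlap Glt8d2 on the other strand and it has processed copies elsewhere in the genome. One such copy, Gm9855, is listed and was detected in 6 of 56 FL HSC, 1 of 36 BM HSC and no cell of the other populations.

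Set side by side, the methyltransferase genes outweighed the Tet genes in every population, and most of all in FL HSC. The mean TPM over cells of Dnmt1, Dnmt3a and Dnmt3b summed to 152 in FL HSC, 73.4 in WT-MPP, 66.8 in CD11b+CD48+SK cells and 35.9 in BM HSC. The same sum for the Tet genes was 11.3, 12.1, 12.1 and 15.4. With Tdg added to the Tet genes it was 60.3 in FL HSC, lower than the methyltransferase sum as in WT-MPP and CD11b+CD48+SK cells, but 42.4 in BM HSC, above the 35.9 of the methyltransferases. Dnmt3b made up 60.1% of the methyltransferase sum in FL HSC, 48.2% in BM HSC and 46.5% in WT-MPP, whereas in CD11b+CD48+SK cells the largest part was Dnmt1 (48.3%). Among the Tet genes the largest part was Tet3 in CD11b+CD48+SK cells (46.5%) and also FL HSC (46.9%), and Tet1 in BM HSC (55.4%) and WT-MPP (42.1%). These sums rest on the few cells with high values, as the single BM HSC with 108 TPM of Tet1 shows.

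**Figure D3:**
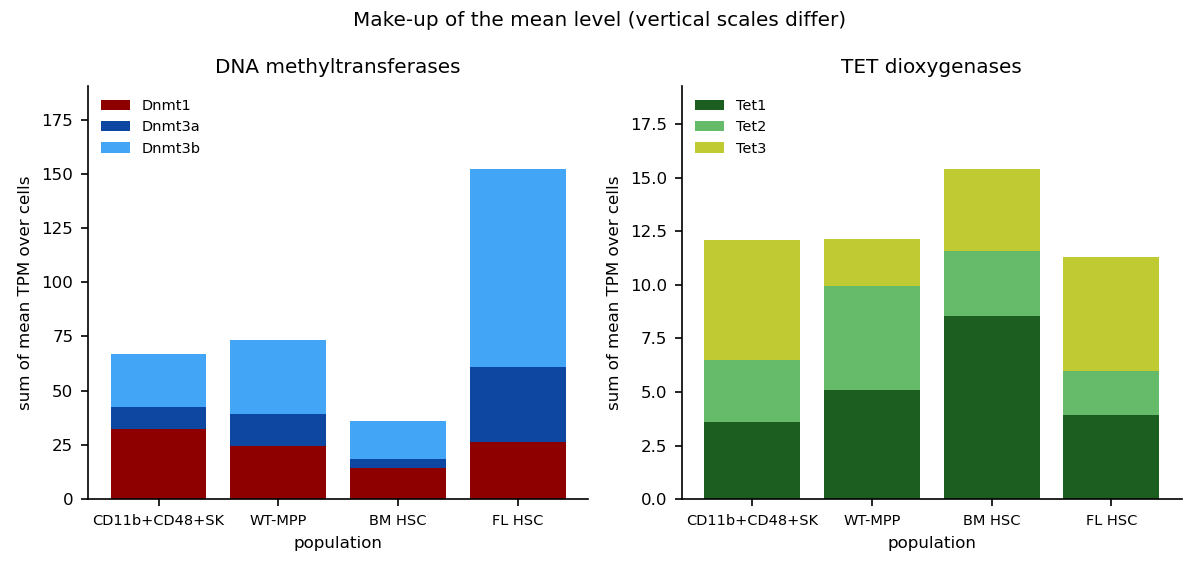
Stacked bars give the mean TPM over cells of Dnmt1, Dnmt3a and Dnmt3b (left) and of Tet1, Tet2 and Tet3 (right) in each population, on vertical scales that differ. The left bar of FL HSC reaches 152, of which Dnmt3b is 60.1%, while the right bars lie between 11.3 and 15.4.

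Differences between populations are given on the log2 scale, as the difference of the means over cells of log2(TPM+1), which understates the change of low genes. Their size was read against all 10856 kept genes, since a member past a difference of 1 means little where many genes are. CD11b+CD48+SK cells were higher than WT-MPP by 1 or more in 3 of the 8 members, Uhrf1 (2.08), Dnmt1 (1.77) and Tdg (1.36), beside 19% of all kept genes, and lower in none, beside 5.01%. At or above the differences of Uhrf1 and Dnmt1 lay 4.23% and 6.53% of kept genes. The Dnmt1 and Tdg differences rested on the number of expressing cells. As log2 of the mean TPM plus 1 they were 0.39 and 0.42, and among expressing cells -0.31 and -0.75. Uhrf1 was also lower among expressing cells (-0.75), but as log2 of the mean TPM plus 1 it stayed past 1 (1.61). Under that averaging Tet3 was past 1 as well. Within cells that had 3500 to 5500 genes detected, Dnmt1 was higher by 1.08, Uhrf1 by 1.72 and Tdg by 0.77.

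Against BM HSC, CD11b+CD48+SK cells were higher by 1 or more in Dnmt1 (1.77), Uhrf1 (1.37) and Dnmt3b (1.13), 3 of 8 members beside 13.4% of kept genes, and lower in none, beside 11.8%. Among cells with 3500 to 5500 genes the differences were 1.81 for Dnmt1, 1.21 for Uhrf1 and 1.03 for Dnmt3b. As log2 of the mean TPM plus 1, Dnmt1 differed by 1.10, but Uhrf1 (0.52) and Dnmt3b (0.48) were under 1, Dnmt3a was past it at 1.13 and Tet1 was lower (-1.05). Against FL HSC no member was higher by 1 or more, beside 4.02% of kept genes, and 3 were lower, beside 20.9%: Dnmt3a (-2.92), Dnmt3b (-2.79) and Tdg (-1.17). Dnmt1 was the member nearest to being higher there, at 0.65, and Uhrf1 differed by -0.25. Among cells with 3500 to 5500 genes, Dnmt1 exceeded its FL HSC level by 1.09 and Uhrf1 by 0.60, while Dnmt3a (-2.91), Dnmt3b (-2.34) and Tdg (-1.14) were lower by 1 or more there too.

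FL HSC were higher than BM HSC by 1 or more in 5 members beside 25.6% of kept genes, and lower in none beside 5.44%. Dnmt3b led with 3.93 and Dnmt3a with 3.56, and 0.350% and 0.571% of kept genes lay at or above them, followed by Tdg (1.75), Uhrf1 (1.61) and Dnmt1 (1.12). Against WT-MPP, which are also in the comparison with CD11b+CD48+SK cells, the same 5 members of FL HSC were higher by 1 or more beside 33.9% of kept genes, and none was lower beside 3.08%. The differences were 3.26 for Dnmt3b, 3.04 for Dnmt3a, 2.54 for Tdg, 2.33 for Uhrf1 and 1.12 for Dnmt1. The median over all kept genes was itself 0.56 in that comparison, and among cells with 3500 to 5500 genes detected Dnmt1 differed by -0.012 and Uhrf1 by 1.11. Dnmt3a and Dnmt3b kept differences of 2.82 and 2.70 from WT-MPP and of 3.19 and 3.37 from BM HSC among those cells, whereas Tdg (0.97), Dnmt1 (0.72) and Uhrf1 (0.60) were under 1 against BM HSC. The Dnmt3a and Dnmt3b differences from WT-MPP rested largely on the number of expressing cells. Among expressing cells they were 0.10 and 0.19, and as log2 of the mean TPM plus 1 they were 1.17 and 1.40. From BM HSC the differences were 1.62 and 1.38 among expressing cells, and 2.81 and 2.34 under that averaging. WT-MPP and BM HSC differed by less than 1 in all 8 members, while 17.2% of kept genes differed by at least that much in either direction. The widest was Tdg, at -0.78.

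**Figure D4:**
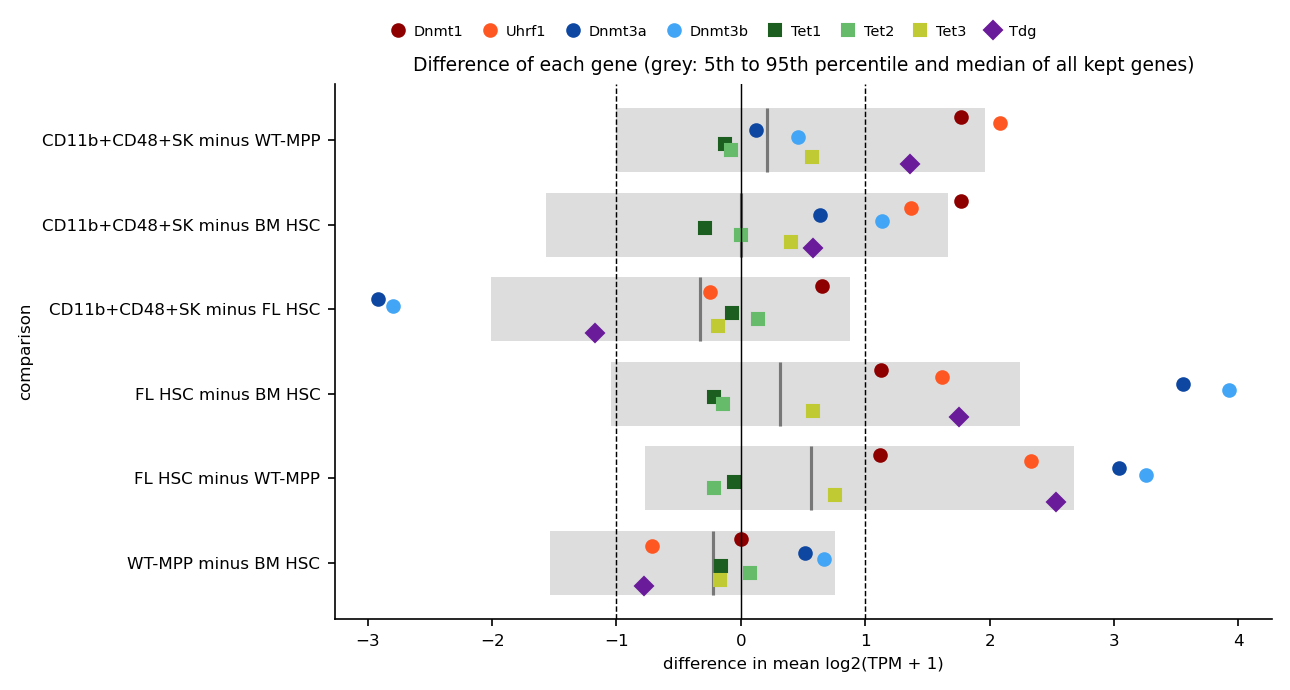
Points give the difference in mean log2(TPM+1) of each member in the 6 comparisons, beside the 5th to 95th percentile (grey) and median (grey line) of all kept genes; dashed lines mark a difference of 1 either way. Dnmt3a and Dnmt3b lie outside the grey band in each comparison with FL HSC, Dnmt1 lies beyond it for CD11b+CD48+SK cells against BM HSC and Uhrf1 against WT-MPP, and the Tet genes lie inside it throughout.

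The erythroid transcripts of FL HSC were weakly related to the de novo genes from cell to cell. Over the 56 FL HSC, the Spearman rho of the summed erythroid markers was 0.03 with Dnmt3a and -0.04 with Dnmt3b, and for the other members it lay between -0.21 (Tet2) and 0.24 (Tdg). In CD11b+CD48+SK cells, some of which had up to 9249 summed TPM of the 5 listed mast cell and basophil markers (median 144), rho with that sum lay between -0.16 (Tdg) and 0.18 (Dnmt3b). These are descriptions over cells of 1 sample each.

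Read per cell, no FL HSC lacked both de novo genes. Few such cells were to be looked for, since Dnmt3a was detected in 91.1% and Dnmt3b in 80.4% of FL HSC. All 56 FL HSC had Dnmt3a or Dnmt3b, and 40 (71.4%, 57.8 to 82.7%) had both. In CD11b+CD48+SK cells 68.1% had either and 21.3% (10.7 to 35.7%) both, in WT-MPP 48.8% and 9.76%, and in BM HSC 44.4% and 8.33%. The 5 FL HSC without Dnmt3a all had Dnmt3b, and the 11 without Dnmt3b all had Dnmt3a. The levels of this pair were nonetheless not ordered alike over FL HSC, with a rho of -0.12, and rho was -0.0045 in CD11b+CD48+SK cells, -0.18 in WT-MPP and 0.25 in BM HSC. All 3 methyltransferases were found in 24 of 56 FL HSC (42.9%), 8 of 47 CD11b+CD48+SK cells (17%), 2 of 41 WT-MPP and 1 of 36 BM HSC.

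At least 1 Tet gene was detected in 73.2% of FL HSC (59.7 to 84.2%), 59.6% of CD11b+CD48+SK cells (44.3 to 73.6%), 58.3% of BM HSC (40.8 to 74.5%) and, lowest, 51.2% of WT-MPP (35.1 to 67.1%). Cells with all 3 Tet genes were single events, 1 in each population. Over all 8 members, the median number detected per cell was 5 in FL HSC, 3 in CD11b+CD48+SK cells, 2.5 in BM HSC and 2 in WT-MPP. No FL HSC had fewer than 2, while 9 WT-MPP, 5 BM HSC and 2 CD11b+CD48+SK cells had none. The number of members moved with the number of genes detected in the cell, with rho of 0.54 in FL HSC, 0.61 in CD11b+CD48+SK cells, 0.48 in BM HSC and 0.56 in WT-MPP.

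Dnmt1 and Uhrf1 were found in the same cells in the populations where both were frequent. Of the 33 CD11b+CD48+SK cells with Dnmt1, 23 had Uhrf1 (69.7%, 51.3 to 84.4%), against 3 of the 14 without (21.4%, 4.66 to 50.8%). In FL HSC 24 of 33 cells with Dnmt1 had Uhrf1 (72.7%, 54.5 to 86.7%), against 6 of 23 without (26.1%, 10.2 to 48.4%). In BM HSC the counts were 4 of 12 and 4 of 24, and in WT-MPP 1 of 13 and 4 of 28. Their rho was 0.36 in FL HSC, 0.48 in CD11b+CD48+SK cells, -0.0074 in BM HSC and -0.061 in WT-MPP. The BM HSC value moved with the measure, to 0.26 with TPM under 1 set to 0, 0.32 as Pearson's r on log2(TPM+1) and -0.18 among cells with 3500 to 5500 genes, so no order is read from it. Among all 28 pairs of members the median rho lay between -0.011 and 0.048 in each population, and rho passed 0.3 in 2 pairs in FL HSC, 2 in CD11b+CD48+SK cells, 3 in BM HSC and 1 in WT-MPP. The strongest negative value of all was -0.41, for Dnmt3a and Tet1 in CD11b+CD48+SK cells.

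The maintenance pair ran with the S phase genes most closely in the CD11b+CD48+SK population. For each cell, log2(TPM+1) was averaged over 30 genes of DNA replication, none of which is a member. In CD11b+CD48+SK cells this mean ran from 0.91 to 7.06 with a median of 3.61, and rho with it was 0.85 for Uhrf1 and 0.54 for Dnmt1. In FL HSC, with a median of 3.56, rho was 0.49 for Uhrf1 and 0.47 for Dnmt1. In WT-MPP, where the S phase mean had a median of 1.57, rho was 0.25 and 0.02, and in BM HSC, with a median of 1.88, it was 0.36 and 0.20. The relation was not confined to S phase genes. With the mean of 28 genes of the G2M phase, rho of Uhrf1 and Dnmt1 was 0.66 and 0.48 in CD11b+CD48+SK cells and 0.44 and 0.42 in FL HSC. It was 0.37 and -0.06 in WT-MPP and 0.16 and 0.15 in BM HSC. With the S phase mean, the further members varied. Dnmt3a stood at 0.27 in CD11b+CD48+SK cells, at 0.19 in both adult marrow populations and at -0.25 in FL HSC. Dnmt3b was positive in each population, at 0.33 in BM HSC, close to the 0.36 of Uhrf1, at 0.15 in FL HSC, at 0.10 in WT-MPP and at 0.09 in the CD11b+CD48+SK population. Tet3 ran from -0.32 in CD11b+CD48+SK cells to 0.43 in BM HSC, and Tdg from 0.06 in CD11b+CD48+SK cells to 0.27 in WT-MPP.

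**Figure D5:**
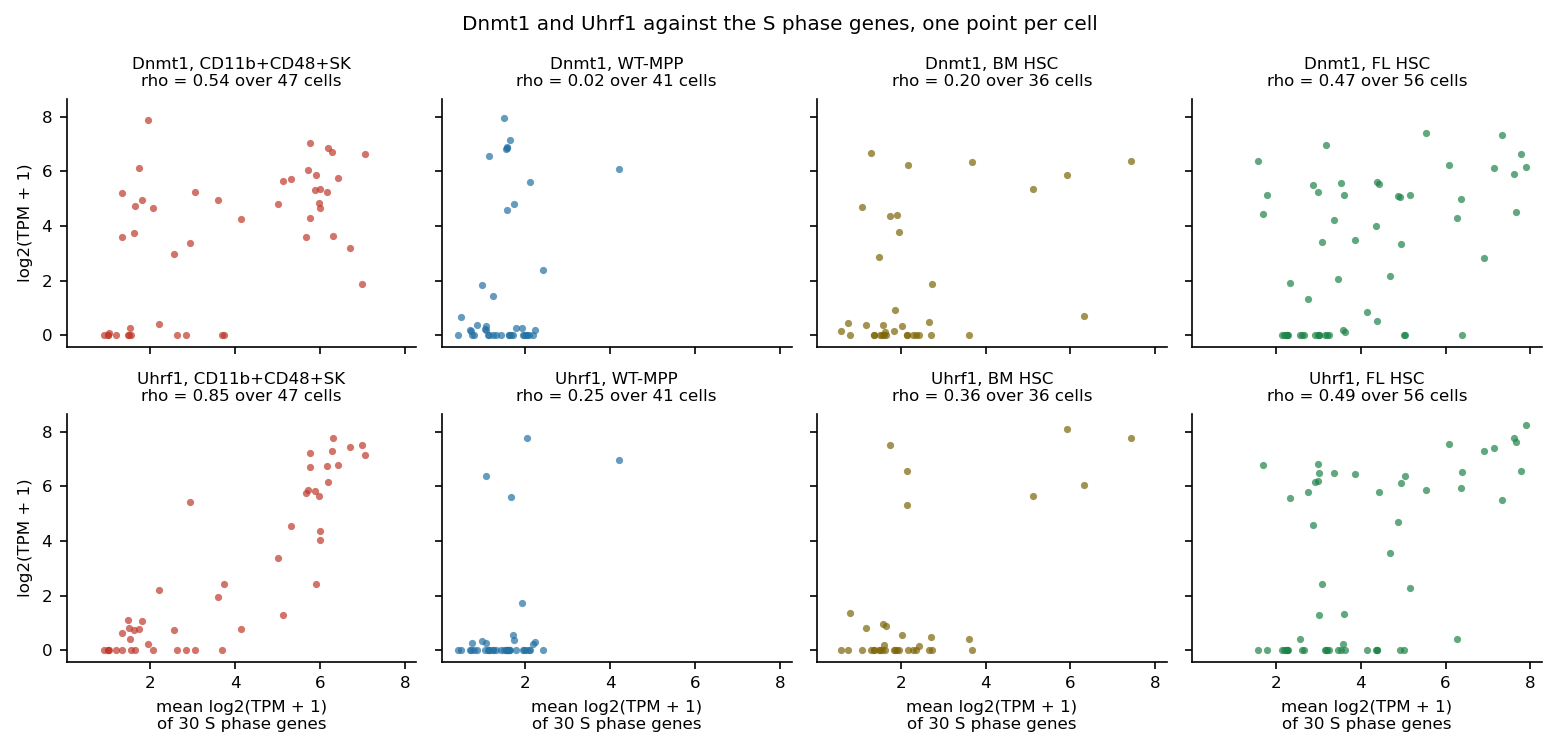
Each point is 1 cell; the horizontal axis is the mean log2(TPM+1) of 30 S phase genes and the vertical axis log2(TPM+1) of Dnmt1 (top) or Uhrf1 (bottom), by population. In CD11b+CD48+SK cells Uhrf1 climbs with the S phase mean (rho 0.85 over 47 cells), while Dnmt1 is also high in cells at the left of its panel (rho 0.54).

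The number of genes detected moved with these values too. Its rho was 0.78 with the S phase mean, 0.70 with Uhrf1 and 0.46 with Dnmt1 in CD11b+CD48+SK cells, and 0.61, 0.56 and 0.31 in FL HSC. Among CD11b+CD48+SK cells with 3500 to 5500 genes detected, rho with the S phase mean was 0.80 for Uhrf1 and 0.53 for Dnmt1, and rho between the pair was 0.48. In FL HSC within that range the values were 0.24 for Uhrf1 and 0.38 for Dnmt1, and 0.25 between the pair. Hoxb5 itself was weakly related to every member in CD11b+CD48+SK cells, from -0.24 for Dnmt3a to 0.19 for Tet1.

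The genes whose levels ran most like each member were ranked by the mean of the 4 within-population rho, among 7452 genes (7453 for Tet2) detected in 20% or more of all cells. For Uhrf1 they were Apitd1, a centromere and DNA repair factor (mean rho 0.53), Lig1, the replicative DNA ligase (0.53), Gins2, part of the replicative helicase (0.50), Cenpm, a centromere protein (0.48), and Hells, a chromatin remodeller needed for DNA methylation (0.48). For Dnmt1 they included the helicase subunit Mcm6 (0.41), the meiotic complex gene Syce2 (0.35), the helicase activator Cdc45 (0.34) and Dtymk, which makes thymidine nucleotides (0.33). Of the 27 S phase genes in the ranking, 25 lay above the 95th percentile of all genes for Uhrf1 and 22 for Dnmt1, but 3 for Dnmt3b and 0 for Dnmt3a, Tdg and each Tet gene. Of the 14 G2M phase genes in the ranking, 9 lay above it for Uhrf1, 5 for Dnmt1, 1 for Tet2 and 0 for the other members. The nearest genes of the other members were weaker: Commd9 for Tdg (0.34), Clk2 for Tet3 (0.33), Wbp11 for Dnmt3b (0.33), Slc48a1 for Dnmt3a (0.30), Acadm for Tet2 (0.30) and Bloc1s6 for Tet1 (0.26).

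Of 7 kept partners of maintenance methylation, 4 exceeded WT-MPP by 1 or more in CD11b+CD48+SK cells and 0 fell below it by as much, beside 19% and 5.01% of all kept genes, with a median difference of 2.54 beside 0.21 over all kept genes. They were Cdca7 (3.30) and Hells (2.89), which work together to open chromatin for the methylation machinery, Lig1 (2.71) and the sliding clamp Pcna (2.54), which couples DNMT1 to the replication fork. Hells was detected in 4.88% of WT-MPP and 66% of CD11b+CD48+SK cells. Uhrf2, the paralogue of Uhrf1, differed by -0.14. Between FL HSC and BM HSC, 3 of the 7 were higher, beside 25.6% of kept genes, Lig1 (2.46), Pcna (1.29) and Cdca7 (1.16), with a median of 0.32 beside 0.31 over all kept genes. In the S phase list 24 of 30 genes were higher by 1 or more in CD11b+CD48+SK cells against WT-MPP and 22 of 30 in FL HSC than in BM HSC, and none was lower.

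Of the 4 kept partners of de novo methylation, Trim28, the corepressor of zinc finger proteins, exceeded its WT-MPP level by 1.47 in CD11b+CD48+SK cells and its BM HSC level by 1.72 in FL HSC. Morc3 was lower in the CD11b+CD48+SK cells (-1.68). Zfp445, an imprint-guarding zinc finger protein, differed by -0.31 and -0.87. The median of the 4 was -0.15 beside 0.21 over all kept genes in the first comparison and 0.12 beside 0.31 in the second. Dnmt3l, the inactive cofactor of the de novo enzymes, was not analysed here.

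A further list held readers of methylated CpG and genes of the same families, and Mbd3 was listed by family and is not taken as a reader. Of its 7 kept genes, Mbd3 (2.16) and Mbd4 (1.33) exceeded WT-MPP by 1 or more in CD11b+CD48+SK cells, beside 19% of all kept genes. None was lower, beside 5.01%. Zbtb33 differed by 0.71, and the list median was 0.41 beside 0.21 over all kept genes. Mbd3 was also higher in FL HSC than in BM HSC (2.24), where Zbtb38 was lower (-1.14) and Mbd4 differed by 0.82, with a median of 0.28 beside 0.31. Mbd4, which like Tdg is a glycosylase acting on thymine mispaired at CpG, was detected in 31.9% of CD11b+CD48+SK cells, 28.6% of FL HSC, 5.56% of BM HSC and 4.88% of WT-MPP.

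Base excision repair completes the erasure that TET and TDG start. The list used here was wider than that step. It covered repair after oxidation or deamination, with glycosylase genes other than Tdg, such as Ung, and with Gadd45 genes. Of its 11 kept genes, 3 exceeded WT-MPP by 1 or more in CD11b+CD48+SK cells, namely the uracil glycosylase gene Ung (3.17), the repair polymerase gene Polb (2.04) and Gadd45a (1.11), and none was lower. This share is near the 19% of all kept genes, and the median was 0.66 beside 0.21. In FL HSC 6 of the 11 were higher than in BM HSC, beside 25.6% of all kept genes, and none was lower, beside 5.44%. They were led by Ung (2.03), the endonuclease gene Apex1 (1.97) and the scaffold gene Xrcc1 (1.90). The list median was 1.09 beside 0.31 over all kept genes.

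Of 7 kept cofactors and partners of the TET enzymes, 2 exceeded WT-MPP by 1 or more in CD11b+CD48+SK cells, Idh3a (1.93) and Idh2 (1.13), both isocitrate dehydrogenase genes whose product the TET enzymes need. Their count is near the 19% of all kept genes, and the list median was 0.28 beside 0.21, and 0.09 beside 0.31 between FL HSC and BM HSC. Ogt, a sugar transferase that binds TET proteins, differed by -0.88 there and was lower in FL HSC than in BM HSC (-1.19), while Idh2 (2.06) and Idh1 (1.13) were higher. Of the 10 genes of the methyl donor cycle, which supplies the methyl group to the DNMT enzymes, 4 exceeded WT-MPP by 1 or more in CD11b+CD48+SK cells, beside 19% of all kept genes, and none was lower, while the list median was close to that of all kept genes in this comparison (0.27 beside 0.21) and between FL HSC and BM HSC (0.32 beside 0.31). The largest were Shmt2 (2.90), Ahcy (2.27) and Shmt1 (2.19). Ahcy (2.21), Shmt2 (1.93) and Shmt1 (1.33) were also the 3 of 10 higher by 1 or more in FL HSC than in BM HSC. That share is near the 25.6% of all kept genes. Ahcy, which clears the by-product of every methylation reaction, was detected in 57.4% of CD11b+CD48+SK cells and 62.5% of FL HSC against 19.5% of WT-MPP and 25% of BM HSC.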

How the data were processed

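Single cells were sorted, their cDNA amplified and libraries sequenced on a NextSeq instrument. Per the submitters' processing notes, reads were handled with bcl2fastq, aligned to mm10 with HISAT2 2.1.0 and SAMtools 0.1.19, and quantified with StringTie 1.3.4; the annotation and the use of strand are not given in the sources used here. The deposited values are TPM estimated by the authors, with 181 columns of cells, of which 1 named as a WT-MPP cell without a sample of its own was not used. No cell was filtered out. The depth per cell is not known from TPM, and the number of cells limits the precision. Low values can also be failed estimates; among 16 genes that every cell uses, Gapdh alone was at 0, in 1 WT-MPP cell.

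Values were averaged over cells as log2(TPM+1), with a pseudocount of 1. Genes were kept where TPM reached 1 in 10% or more of some population's cells. Shares carry exact Clopper-Pearson 95% intervals. Spearman's rho was computed over cells within a population and carries no p-value. The members and the gene lists were chosen with earlier results of these data known. From each partner list, the 3 genes of largest difference in each of the CD11b+CD48+SK with WT-MPP and FL HSC with BM HSC comparisons were to be named, and for each member the genes most like it; Pcna, Uhrf2 and Dnmt3l were named in addition, and a gene that ranked among those most like Dnmt1 is not reported here. Positions come from GENCODE M21 (GRCm38), the build to which mm10 corresponds, and promoters from RefSeq (GRCm38.p6). Computation used Python 3.11.15, numpy 2.4.6, pandas 2.3.3 and scipy 1.17.1, with plots from matplotlib 3.10.9, and the scripts were tested on simulated data. Alternatives covered the pseudocount, averaging, scaling of cells, filter, detection limit, cells with 3500 to 5500 genes detected, removal of the 100 highest genes, and the correlation coefficient.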

Additional observations from a re-analysis of the deposited data

How the results depend on the processing

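Most alternative values for single differences (249) kept their side of 1, and 13 went from under 1 to past it. Differences of 1 or more fell under 1 without a change of sign in 25 of their 114 alternative values. Of these, 11 were with a pseudocount of 10 and 9 as log2 of the mean TPM plus 1. The high Dnmt3a and Dnmt3b of FL HSC lay past 1 under every alternative. Of 114 alternative values for differences of 1 or more, 1 changed sign, Dnmt1 in FL HSC against WT-MPP among cells with 3500 to 5500 genes (-0.012), and of 174 for smaller differences 14 did, among them Dnmt3a (-0.52) and Dnmt3b (-0.46) in CD11b+CD48+SK cells against WT-MPP as log2 of the mean TPM plus 1, and, among cells with 3500 to 5500 genes, Uhrf1 in CD11b+CD48+SK cells against FL HSC (0.60) and Tdg against BM HSC (-0.17). Median-ratio scaling lowered the count of members higher by 1 or more in FL HSC than in WT-MPP from 5 to 4. It left the other counts as they were, and leaving out the 100 highest genes changed none. With a pseudocount of 10, members higher by 1 or more numbered 0 for CD11b+CD48+SK cells against WT-MPP, 0 against BM HSC, and 2 for FL HSC against BM HSC. With a pseudocount of 0.1, 1 member was higher in CD11b+CD48+SK cells than in FL HSC, and in WT-MPP 1 was higher and 2 were lower than in BM HSC. As log2 of the mean TPM plus 1, 1 member was lower in CD11b+CD48+SK cells than in BM HSC, 2 were higher in FL HSC than in BM HSC, and 1 was higher and 1 lower in WT-MPP than in BM HSC; this averaging moved the median of all kept genes from 0.21 to -0.32 for CD11b+CD48+SK cells against WT-MPP and from 0.56 to -0.10 for FL HSC against WT-MPP. Among cells with 3500 to 5500 genes, 1 member was higher in CD11b+CD48+SK cells than in FL HSC and 2 in FL HSC than in BM HSC, members in at least 50% of cells were 1 in BM HSC (Tdg) and 3 in FL HSC, and in FL HSC rho was 0.25 for Dnmt1 with Uhrf1 and 0.24 for Uhrf1 with the S phase mean. Members in at least 50% of cells numbered 5 in CD11b+CD48+SK cells, 4 in WT-MPP and 3 in BM HSC with any TPM above 0 counted, and with a TPM of 10 or more 1 in CD11b+CD48+SK cells and 3 in FL HSC. The cause of these changes was not tested, and the other counts under these settings lay within 1.5 times the reported ones. A count that stayed near could hold other members. For CD11b+CD48+SK cells against WT-MPP as log2 of the mean TPM plus 1, the members counted were Uhrf1 and Tet3, without Dnmt1 and Tdg. At a difference of 2 in place of 1, 1 member was higher in CD11b+CD48+SK cells than WT-MPP, 0 than BM HSC, and 2 were higher in FL HSC than BM HSC. Each population is 1 sample, so no replicate could be left out. No paired analysis was possible because no test was made and the numbers in the labels only name cells.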
